A study of Mus musculus with 7 samples.

Results

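The SRSF genes encode the SR proteins, the serine- and arginine-rich splicing factors. Described here are the 10 genes Srsf1 to Srsf7, Srsf9, Srsf10 and Srsf11, taken by symbol from the 48795 gene identifiers of the table. All 10 had a row and all 10 passed the filter on low counts, which kept 11618 genes. Srsf12, the other SRSF gene of the mouse, had no counts in 6 of the 7 libraries and 12 counts in MIZ1KO replicate 3, and was not tested.

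Their transcripts were counted by bulk RNA sequencing of light zone germinal centre B cells, which were sorted out of mouse spleens on day 10 of a response to sheep red blood cells given intravenously. There were 3 libraries labelled MIZ1KO, whose titles call them MizFF, and 4 labelled Control, whose titles call them eYFP. The gene of MIZ1, a transcription factor with zinc fingers, is Zbtb17, and the comparison asks how its loss alters the transcripts of these cells. Strain, Cre driver, age, and whether each library is 1 animal were not given in the sources used here. The p-values therefore measure only how far these libraries spread, and that spread may be technical.

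An SR protein binds exonic sequences through its RNA recognition motifs and, through a tail of arginine-serine repeats, helps to bring the U1 particle and U2AF to the splice sites. The tail is phosphorylated by SRPK kinases, mainly in the cytoplasm, and by CLK kinases in the nucleus, which controls entry into the nucleus and release from nuclear speckles. Many SR genes limit their own output by making transcripts with a poison exon or a retained intron, which are destroyed by nonsense-mediated decay or kept in the nucleus. In B cells, splicing factors of this family act on immunoglobulin, receptor and activation transcripts. The deposited counts are per gene, so coding and non-coding transcripts of an SRSF gene are added together. GENCODE vM21 lists 85 transcripts over the 10 genes, of which 15 are classed as nonsense-mediated decay and 26 as retained intron. Nonsense-mediated decay transcripts are annotated for 9 of the 10 genes, all but Srsf10, and retained-intron transcripts for 8, all but Srsf9 and Srsf10.

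The libraries held 6896673 to 9482453 counts, of which 3087992 to 5085019 lay outside ribosomal RNA models, which took 46.4% to 56.1% of a library although the molecule is labelled polyA RNA. The SRSF genes summed to 8734 to 20543 counts per library, and a single gene had between 104 and 6366. Of the B cell markers, Cd79a, a chain of the B cell receptor complex, measured 658, 591 and 759 CPM in MIZ1KO and 452, 355, 307 and 358 CPM in Control, where CPM are counts scaled to a common library size that includes ribosomal RNA. Cd79a rose in MIZ1KO (log2 fold change 0.86 ± 0.22, SE; adjusted p = 0.0333, edgeR). Bcl6, the germinal centre repressor, measured 273, 236 and 297 CPM in MIZ1KO and 220, 223, 210 and 226 CPM in Control. The 5 light zone markers summed to between 547 and 644 CPM in MIZ1KO and between 484 and 784 CPM in Control, and none passed the test (edgeR). They did not move together: the log2 fold changes were 0.70 for Nfkbia and 0.39 for Cd83 but -0.79 for Bcl2a1b, -0.41 for Cd86 and -0.04 for Egr3. Nfkbia was higher and Cd86 lower in MIZ1KO without overlap. T cell markers were near 0 but did not overlap, at 1.504 to 14.0 CPM in MIZ1KO and 0 to 1.40 CPM in Control for a sum over 5 genes. None of the 5 passed the filter on low counts. Myeloid markers summed to between 2.90 and 21.4 CPM in MIZ1KO and between 4.20 and 7.48 CPM in Control, and erythroid markers to between 60.8 and 486 CPM in MIZ1KO and between 114 and 420 CPM in Control. The summed CPM of the 10 SRSF genes was 1508, 2053 and 1405 in MIZ1KO and 2301, 2094, 1698 and 1754 in Control, with MIZ1KO replicate 2 inside the Control range. The part of other cell types in the SRSF values was not tested. Zbtb17 itself measured 5.16, 3.70 and 4.504 CPM in MIZ1KO and 3.15, 3.42, 3.15 and 7.02 CPM in Control. These counts cover the whole gene, so they do not check the genotype labels.

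None of the 10 SRSF genes passed an adjusted p of 0.05 between MIZ1KO and Control in edgeR's quasi-likelihood test, where 5.96% of all tested genes did, 221 upward and 471 downward. After a correction for GC content and length that split was 242 upward and 143 downward. At an unadjusted p under 0.05 there was 1 of 10, Srsf4, where the share of all tested genes was 24.6%. Of the 9812 protein-coding genes in the fit as designed, 204 passed upward and 202 downward, and 2079 were under an unadjusted p of 0.05. DESeq2 and limma-voom also called 0 of the 10. The fitted differences in log2 ran from -0.48 for Srsf3 to 0.76 for Srsf4. Of the 10, 8 lay below 0 and 2 above, with a median of -0.16. Of all 11618 tested genes 6080 lay below 0, and of the 9812 protein-coding genes 4658 did. The median was -0.03 over all tested genes and 0.03 over the protein-coding genes tested. After the same correction, 8 of the 10 lay above 0, with a median of 0.10, and that correction also moved the median of all genes, by 0.12, to 0.09. The median of the SRSF genes thus lay -0.12 from that of all genes in the fit as designed and 0.01 from it after the correction. In bulk samples, fewer cells of a type and less RNA per cell cannot be told apart.

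The precision of these estimates was taken from the spread between libraries, and shifts from processing are not covered by it. The 95% intervals of the log2 differences included 0 for 9 genes and excluded it for 1, Srsf4. For 7 genes the whole interval lay within 1 log2 unit either way, and the other 3, Srsf3, Srsf4 and Srsf9, reached beyond it on 1 side. The narrowest intervals were those of Srsf10, Srsf6 and Srsf11, and the widest that of Srsf7.

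**Figure D1:**
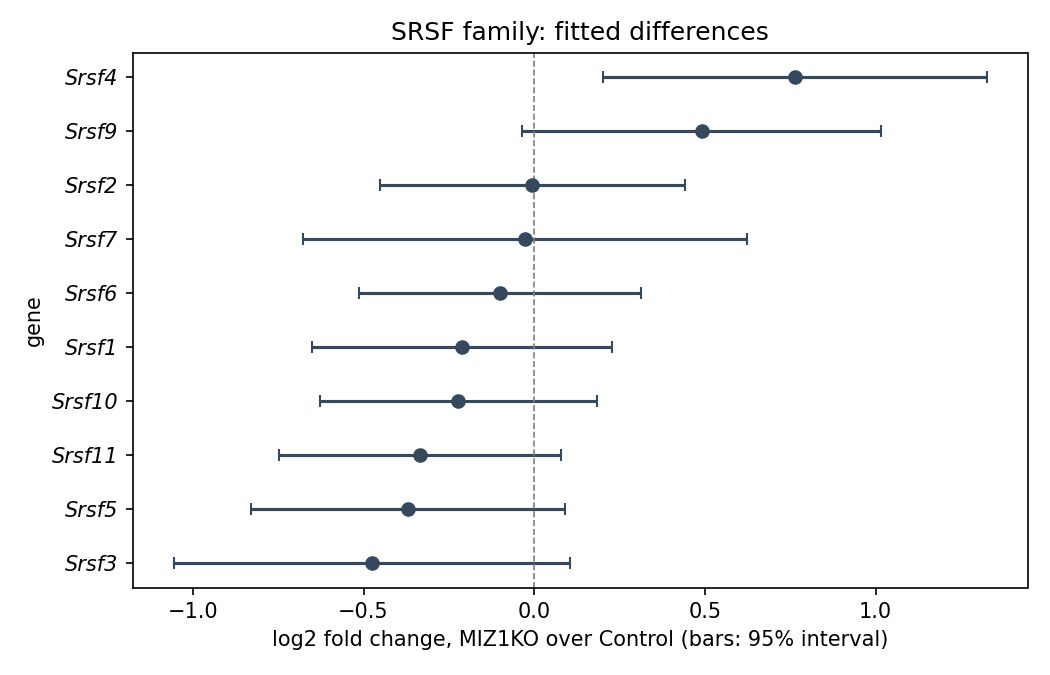
Fitted log2 fold change of MIZ1KO over Control for each SRSF gene (points) with its 95% interval (bars), from edgeR's quasi-likelihood fit to 3 MIZ1KO and 4 Control libraries. The bar of Srsf4 lies wholly above 0 and those of the other 9 genes cross 0.

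Srsf4 was the gene of the family whose libraries did not overlap between the genotypes. SRSF4 is among the longest SR proteins and carries a pair of RNA recognition motifs. Srsf4 measured 37.2, 29.7 and 43.3 CPM in MIZ1KO and 25.6, 16.2, 15.1 and 28.4 CPM in Control. All 3 MIZ1KO libraries thus lay above all 4 Control libraries, with MIZ1KO replicate 2 only just above Control replicate 4. The log2 fold change was 0.76 ± 0.27 (SE; 95% interval 0.20 to 1.33), with an adjusted p of 0.0901 (edgeR). Separation of the genotypes in either direction was found for 1 of 10 SRSF genes and for 19.5% of all tested genes. It was upward for that 1 gene and for 8.74% of all tested genes, and downward for 0 of 10 and 10.8%. The authors' deposited log2 values gave the same order, 8.004 ± 0.18 in MIZ1KO and 7.49 ± 0.26 in Control (SD over 3 and 4 libraries), also without overlap. Over the alternative fits the adjusted p of Srsf4 stayed between 0.0527 and 0.233.

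The Srsf4 locus (ENSMUSG00000028911) lies on chromosome 4 from 131873617 to 131901706 in GRCm38, 9.54 Mb from Zbtb17, and Srsf10 lies 5.57 Mb from Zbtb17 on the same chromosome. Inside Srsf4, on the same strand, the annotation has A930004J17Rik, a single model of the class TEC, which still awaits experimental evidence. It averaged 21.8 ± 7.86 CPM in MIZ1KO and 46.6 ± 12.9 CPM in Control (SD over 3 and 4 libraries), and fell by 1.12 on the log2 scale (adjusted p = 0.0284, edgeR). Another TEC model, Gm43362, lies inside Srsf11 and fell by 1.17 (adjusted p = 0.0486, edgeR), with 6.997 ± 2.10 CPM in MIZ1KO and 15.5 ± 3.09 CPM in Control (SD over 3 and 4 libraries). Both were named here because they overlap an SRSF gene. All TEC models together made up 0.544% to 0.923% of non-ribosomal counts in MIZ1KO and 1.02% to 2.58% in Control, so the sum of the class was lower in MIZ1KO without overlap. That sum includes Gm37376, a model opposite Malat1 with 118052 counts over all libraries, and its part in the difference was not tested. How reads shared by overlapping models were divided depends on the authors' counting, and the strand setting was not given in the sources used here. Overlapping models exist for 4 of the 10 genes: Srsf2 shares its locus with Mfsd11 and Mettl23, and Srsf1 with Gm11508, which had at most 5 counts in a library. On the opposite strand, Gm12992 overlaps the end of Srsf4, with 31.8 to 153 counts in a library. Gm12992 averaged 13.2 ± 2.92 CPM in MIZ1KO and 9.70 ± 5.84 CPM in Control (SD over 3 and 4 libraries). Its log2 fold change was 0.46 (adjusted p = 0.503, edgeR), and its part in the Srsf4 values was not tested.

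Srsf9 and Srsf1 form a pair of close relatives, each with a pair of RNA recognition motifs and a short arginine-serine tail. SRSF1, the founding member, acts in constitutive and alternative splicing and shuttles to the cytoplasm. Srsf9 measured 31.7, 27.0 and 29.8 CPM in MIZ1KO and 21.4, 18.4, 16.1 and 27.4 CPM in Control. Only Control replicate 4 reached into the MIZ1KO range, where it exceeded MIZ1KO replicate 2. Srsf9 (ENSMUSG00000029538) lies at chr5:115327177-115333080 on the plus strand. The log2 fold change of Srsf9 was 0.49 ± 0.25 (SE), with an adjusted p of 0.235 (edgeR). Srsf1 (ENSMUSG00000018379) lies at chr11:88047373-88053755 on the plus strand. Srsf1 measured 186, 238 and 170 CPM in MIZ1KO and 260, 252, 197 and 209 CPM in Control, so that the genotypes overlapped through MIZ1KO replicate 2. Its log2 fold change was -0.21 ± 0.21 (SE; adjusted p = 0.576, edgeR), and it was -0.12 without MIZ1KO replicate 1 and -0.11 without MIZ1KO replicate 3.

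Srsf3 and Srsf7 encode SR proteins with a single RNA recognition motif, and both also serve as adaptors for mRNA export through NXF1. Srsf3 (ENSMUSG00000071172) lies at chr17:29032628-29043373 on the plus strand. Srsf3 had the most counts of the family, at 397, 631 and 331 CPM in MIZ1KO and 835, 711, 484 and 493 CPM in Control. MIZ1KO replicate 2 lay within the Control range and the other 2 MIZ1KO libraries below it. The log2 fold change was -0.48 ± 0.28 (SE; 95% interval -1.06 to 0.10), with an adjusted p of 0.300 (edgeR). It was -0.083 after correction for GC and length, -0.73 without MIZ1KO replicate 2, -0.29 without MIZ1KO replicate 3 and -0.31 without Control replicate 1. Srsf7 (ENSMUSG00000024097) lies at chr17:80200080-80207307 on the minus strand. Srsf7 measured 151, 231 and 97.2 CPM in MIZ1KO and 258, 183, 107 and 106 CPM in Control, a difference of -0.03 ± 0.31 (SE; adjusted p = 0.969, edgeR). Srsf7 varied more within each genotype than between them, with a ratio of 2.65 between its highest and lowest library. The estimates of Srsf7 and Srsf2 took the other sign under several alternative fits.

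Srsf2 encodes the SR protein also known as SC35. Srsf2 (ENSMUSG00000034120) lies at chr11:116849901-116853094 on the minus strand. Srsf2 measured 226, 303 and 210 CPM in MIZ1KO and 288, 258, 217 and 228 CPM in Control, with a log2 fold change of -0.01 ± 0.21 (SE; 95% interval -0.45 to 0.44; adjusted p = 0.990, edgeR). The groups overlapped over nearly their whole range. As a share of the summed CPM of the 10 genes, which does not depend on library scaling, Srsf2 took 15.0%, 14.8% and 15.0% in MIZ1KO and 12.5%, 12.3%, 12.8% and 13.0% in Control. These shares did not overlap and varied little within a genotype, with 14.9% ± 0.127 in MIZ1KO and 12.6% ± 0.300 in Control (SD over 3 and 4 libraries). Of the 10 genes only Srsf2 had shares without overlap, and a share also depends on the levels of the other genes in the sum. The share was looked at after the values were seen and was not tested. The share of Srsf3 averaged 26.9% ± 3.61 in MIZ1KO and 31.7% ± 4.05 in Control, with overlap, and the share of Srsf4 also overlapped, at 2.33% ± 0.825 in MIZ1KO and 1.10% ± 0.374 in Control (SD, n = 3 and n = 4).

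Srsf5 and Srsf6 are the nearest relatives of Srsf4. Srsf5 (ENSMUSG00000021134) lies at chr12:80945504-80950507 on the plus strand. Srsf5 measured 152, 239 and 232 CPM in MIZ1KO and 225, 282, 279 and 288 CPM in Control. Control replicate 1 stood below the other 3 Control libraries and within the MIZ1KO range. The log2 fold change was -0.37 ± 0.22 (SE; adjusted p = 0.311, edgeR), and -0.14 without MIZ1KO replicate 1. Srsf6 (ENSMUSG00000016921) lies at chr2:162931528-162937121 on the plus strand. Srsf6 measured 105, 111 and 78.5 CPM in MIZ1KO and 113, 110, 91.2 and 108 CPM in Control, a difference of -0.10 ± 0.20 (SE; adjusted p = 0.804, edgeR). With GC and length corrected, the estimates of Srsf4, Srsf5 and Srsf6 were 0.61, 0.053 and 0.060.

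Srsf10, a splicing repressor when dephosphorylated, as known from heat-shocked and dividing human cells, measured 125, 118 and 96.0 CPM in MIZ1KO and 153, 122, 122 and 132 CPM in Control. Srsf10 (ENSMUSG00000028676) lies at chr4:135855747-135869908 on the plus strand. Its log2 fold change was -0.22 ± 0.19 (SE; adjusted p = 0.513, edgeR), and MIZ1KO replicate 1 lay inside the Control range. The estimate was -0.11 without MIZ1KO replicate 3 and -0.15 without Control replicate 1. Srsf11 (ENSMUSG00000055436) lies at chr3:158010473-158036639 on the minus strand. Srsf11, a more distant member, measured 97.9, 124 and 117 CPM in MIZ1KO and 122, 142, 170 and 135 CPM in Control. The difference was -0.34 ± 0.20 (SE; adjusted p = 0.305, edgeR), with MIZ1KO replicate 2 just above Control replicate 1. It was -0.12 with GC and length corrected, -0.19 without MIZ1KO replicate 1 and -0.20 without Control replicate 3.

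**Figure D2:**
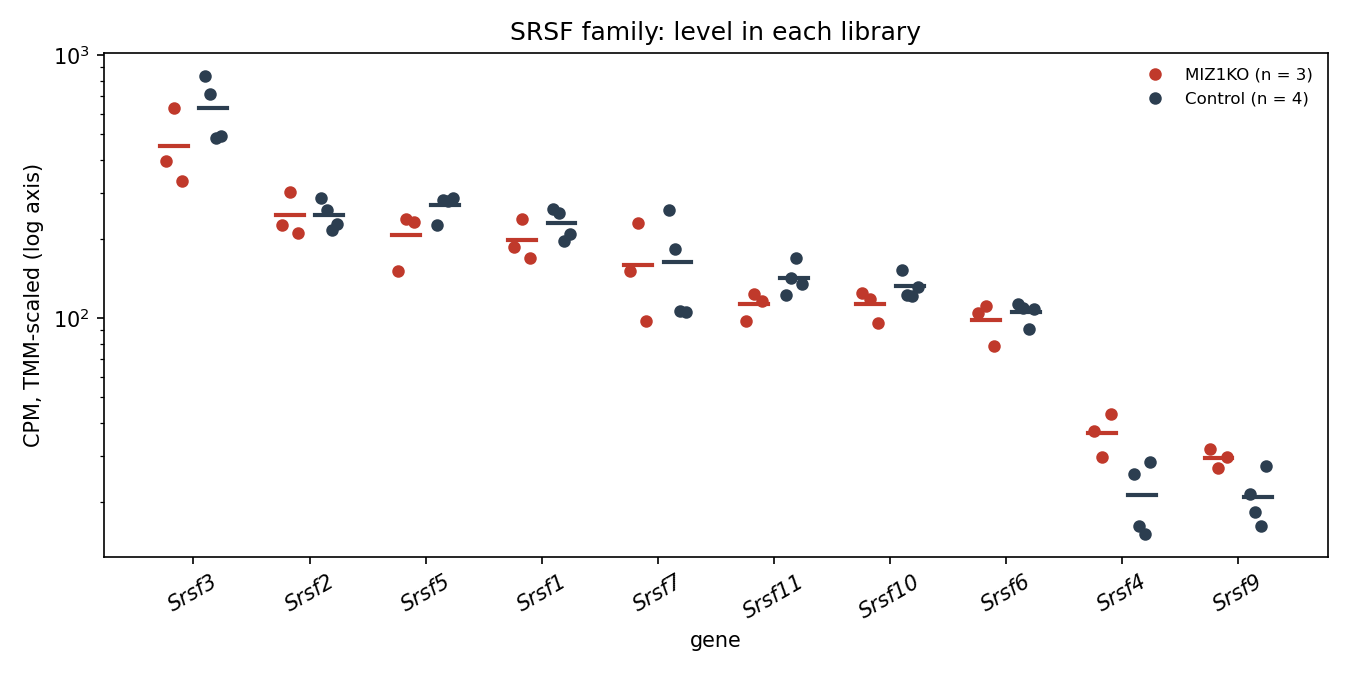
CPM of the 10 SRSF genes on a log axis, with a point per library and a bar at the mean of each genotype, MIZ1KO (n = 3) left of Control (n = 4). CPM takes no account of gene length, so the heights of different genes are not compared here. The groups are clear of each other for Srsf4, at 29.7 to 43.3 CPM in MIZ1KO and 15.1 to 28.4 CPM in Control.

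Levels of different genes were set side by side only as CPM per kilobase of annotated exon. On that scale Srsf2 stood first, with 83.3 ± 16.8 in MIZ1KO and 83.7 ± 10.7 in Control (SD over 3 and 4 libraries, as for the levels below). Srsf3 followed with 57.4 ± 19.9 in MIZ1KO and 79.9 ± 21.8 in Control, then Srsf5 with 52.1 ± 12.3 in MIZ1KO and 67.3 ± 7.25 in Control. Srsf7 had 45.0 ± 19.0 in MIZ1KO and 46.0 ± 20.4 in Control. Neighbours among these first 5 genes, Srsf1 being the fifth, kept their order in 4 or 5 of the 7 libraries and so did not differ beyond their spread. Srsf1 lay above Srsf6 in all 7 libraries, with 34.7 ± 6.24 in MIZ1KO and 40.2 ± 5.47 in Control for Srsf1 and 20.4 ± 3.60 in MIZ1KO and 21.9 ± 2.02 in Control for Srsf6, and Srsf6 lay above Srsf10 in all 7. Srsf10, with 16.2 ± 2.16 in MIZ1KO and 18.9 ± 2.11 in Control, changed places between libraries with Srsf11 and Srsf9. Srsf11 had 13.4 ± 1.60 in MIZ1KO and 16.9 ± 2.38 in Control, and Srsf9 had 17.8 ± 1.44 in MIZ1KO and 12.6 ± 2.95 in Control. Srsf4 was last, with 10.3 ± 1.91 in MIZ1KO and 5.98 ± 1.87 in Control, and lay below Srsf9 in all 7 libraries. The exon length counts every annotated exon, those of retained introns included, so genes with many such models are placed lower by it. The order is by the mean over all 7 libraries, and the place of Srsf9 depends on the genotype: in MIZ1KO its mean lay above those of Srsf10 and Srsf11, and in Control below both.

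The region before the gene start is shown for Srsf2 and Srsf3, first by that mean, and for Srsf9 and Srsf4, last by it and the genes with estimates above 0 in the fit as designed, with capitals on matches to TATAAA, the core of the TATA box, and to CCAAT, the box bound by NF-Y, on either strand. The sequences are the 250 bases before the start in RefSeq's table for GRCm38.p6, read 5′ to 3′ on the strand of the gene. Srsf2 is chr11:116853095-116853344 on the minus strand, Srsf3 chr17:29032410-29032659, Srsf9 chr5:115326927-115327176 and Srsf4 chr4:131873387-131873636, all 3 on the plus strand.
Srsf2: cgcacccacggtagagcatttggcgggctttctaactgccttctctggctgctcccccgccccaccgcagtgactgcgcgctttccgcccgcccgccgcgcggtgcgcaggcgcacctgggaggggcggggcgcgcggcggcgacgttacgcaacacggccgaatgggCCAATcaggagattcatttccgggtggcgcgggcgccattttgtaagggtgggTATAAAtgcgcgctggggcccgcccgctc
Srsf3: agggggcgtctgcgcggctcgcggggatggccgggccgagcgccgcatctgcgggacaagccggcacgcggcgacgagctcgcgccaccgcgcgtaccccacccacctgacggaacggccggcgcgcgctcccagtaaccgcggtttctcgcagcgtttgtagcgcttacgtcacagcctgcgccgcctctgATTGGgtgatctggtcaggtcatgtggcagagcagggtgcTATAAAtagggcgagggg
Srsf9: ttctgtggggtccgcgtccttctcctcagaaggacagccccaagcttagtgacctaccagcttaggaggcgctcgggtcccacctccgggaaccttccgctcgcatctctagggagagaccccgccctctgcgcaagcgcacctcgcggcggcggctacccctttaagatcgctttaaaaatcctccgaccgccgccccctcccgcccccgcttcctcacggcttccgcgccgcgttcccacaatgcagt
Srsf4: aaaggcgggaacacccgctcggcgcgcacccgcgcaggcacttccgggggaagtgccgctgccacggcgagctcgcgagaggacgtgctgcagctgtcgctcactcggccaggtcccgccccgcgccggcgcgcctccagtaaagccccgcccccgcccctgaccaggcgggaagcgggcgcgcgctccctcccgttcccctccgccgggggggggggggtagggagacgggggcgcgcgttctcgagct
Srsf2 has TATAAA starting 29 bases before the RefSeq start and Srsf3 has it 18 bases before, both in the sense of the gene. The windows of Srsf3 and Srsf4 run past the GENCODE starts of these genes, at 29032628 and 131873617. The TATAAA of Srsf3 lies after its GENCODE start. Srsf2 and Srsf3 were the only 2 of the 10 SRSF genes with a match to TATAAA, where 12.4% of the 32851 windows of the table hold one on either strand. CCAAT was found in 3 of the 10, Srsf2, Srsf3 and Srsf10, and in 33.8% of all windows. CACGTG, the E-box that MYC and MAX bind, was found in 0 of the 10 and in 6.02% of all windows. Srsf9 and Srsf4 held none of the 3 motifs in these windows. For Srsf4 and Srsf11, which have several starts in the table, the outermost was used for these counts, and their other windows held none of the motifs either. A match is a description of letters and says nothing of what binds there.

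Across the libraries the SRSF genes fell into sets that varied together. MIZ1KO replicate 3 had the lowest level of 6 of the 10 genes, Srsf1, Srsf2, Srsf3, Srsf6, Srsf7 and Srsf10, and Control replicate 1 had the highest level of 5 of these. Srsf1 and Srsf3 followed each other most closely, with a Pearson r of log2 CPM of 0.99 over the 7 libraries, and of 0.99 after each genotype was centred on its own mean. Srsf2 and Srsf7 gave 0.94 and, after centring, 0.94. Srsf4 and Srsf9 formed a set of their own, with 0.95 and, after centring, 0.89, and Srsf5 and Srsf11 another, with 0.86 and 0.75. Srsf4 and Srsf9 ran against Srsf11, at -0.85 for each, or -0.67 and -0.68 after centring. Over all 45 pairs the values ran from -0.85 to 0.99 with a median of 0.04, 23 above 0 and 22 below. These are descriptions over 7 libraries that share a scaling and, within a genotype, a group mean.

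**Figure D3:**
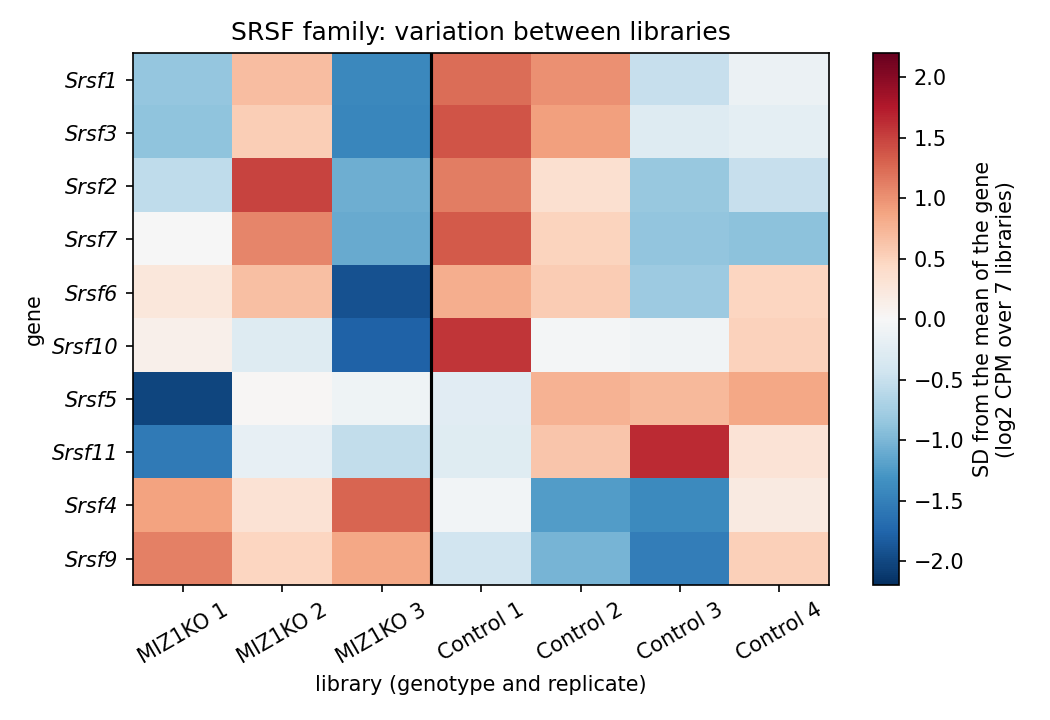
Level of each SRSF gene in each library, as the number of SD from the gene's mean of log2 CPM over the 7 libraries (red above, blue below), with the 3 MIZ1KO libraries left of the 4 Control libraries. The first 4 rows, Srsf1, Srsf3, Srsf2 and Srsf7, are above their mean in MIZ1KO replicate 2 and Control replicates 1 and 2. They are lowest in MIZ1KO replicate 3. Srsf4 and Srsf9 are above their mean in all 3 MIZ1KO libraries and in Control replicate 4.

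The protein-coding genes most like the family were sought among 6291 with a mean of at least 10 CPM, by the Pearson r between their log2 CPM and the mean of the standardised SRSF values over the 7 libraries. The first 5 were Fcf1, Vamp3, Atl2, Thoc7 and Gng2, with r between 0.98 and 1.00, the value by which they were picked. The SRSF genes did not all vary together (median r of 0.04 over 45 pairs), so their mean does not stand for each of them. Fcf1 encodes a factor of small ribosomal subunit assembly and Thoc7 a subunit of the THO complex of mRNA export. Fcf1 measured 28.9, 57.2 and 23.2 CPM in MIZ1KO and 66.4, 47.0, 29.1 and 43.0 CPM in Control. None of the 5 passed the test between the genotypes by edgeR (adjusted p between 0.388 and 0.648).

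Among the enzymes that phosphorylate or dephosphorylate SR proteins, the nuclear kinases Clk1 and Clk4 fell in MIZ1KO. All 12 listed genes were tested; 0 rose and 2 fell, with a median log2 fold change of -0.04. Of all tested genes 1.90% rose and 4.05% fell, and of the 9812 protein-coding genes tested 204 rose and 202 fell. Clk4 measured 28.2, 29.1 and 32.8 CPM in MIZ1KO and 52.9, 63.0, 98.4 and 75.8 CPM in Control. The highest MIZ1KO library stayed below the lowest Control library, and the log2 fold change was -1.28 ± 0.24 (SE; adjusted p = 0.0104, edgeR). Clk1 measured 80.6, 114 and 76.4 CPM in MIZ1KO and 148, 183, 293 and 227 CPM in Control, again without overlap. Its log2 fold change was -1.23 ± 0.25 (SE; adjusted p = 0.0141, edgeR). Both genes are known in mouse and human cells for transcripts that keep introns and stay in the nucleus until splicing is completed. The Clk1 call ended without MIZ1KO replicate 1 (adjusted p = 0.118, edgeR), without MIZ1KO replicate 3 (0.0514) and after correction for GC and length (0.101), where the log2 fold change was -0.56. The Clk4 call ended without MIZ1KO replicate 1 (0.0831, edgeR) and after that correction (0.0509), with a log2 fold change of -0.76.

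Of 13 genes for partners at the splice sites and scaffolds of nuclear speckles, Snrpa rose and Tra2a fell, and the median log2 fold change was -0.03. Over all tested genes 1.90% rose and 4.05% fell, and over the 9812 protein-coding genes tested 204 rose and 202 fell. At an unadjusted p under 0.05 there were 5 of the 13, against 24.6% of all tested genes. Tra2a encodes transformer 2 alpha, an SR-like protein that binds exonic enhancers. It measured 61.6, 69.9 and 63.9 CPM in MIZ1KO and 114, 121, 143 and 130 CPM in Control, so the groups were far apart relative to their spread. Its log2 fold change was -0.96 ± 0.19 (SE; adjusted p = 0.0138, edgeR), and the call ended without MIZ1KO replicate 1 (0.117) or Control replicate 4 (0.0545). After correction for GC and length the log2 fold change of Tra2a was -0.61, over 1.5 times smaller, and still passed (adjusted p = 0.0463, edgeR). Snrpa encodes the A protein of the U1 particle. It measured 68.7, 60.3 and 89.9 CPM in MIZ1KO and 52.3, 36.7, 33.5 and 41.0 CPM in Control, with a log2 fold change of 0.83 ± 0.22 (SE; adjusted p = 0.0365, edgeR). The Snrpa call ended without any 1 of 5 libraries, MIZ1KO replicates 1 and 3 and Control replicates 2, 3 and 4, and in limma-voom, with the replicate block and after correction for GC and length, where the adjusted p was at most 0.142 (edgeR or limma). Other annotated models overlap each of Clk4, Tra2a and Snrpa, so some of their reads may be shared. Summed over all libraries, those models had 2 and 41 counts at Clk4, 583 at Tra2a and 557 at Snrpa.

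In the genes for transport and export of SR proteins and mRNA, 0 of 8 passed the test in edgeR, and 0 were under an unadjusted p of 0.05, with a median log2 fold change of 0.02. The members with the smallest p, Thoc1 and Thoc5 of the THO complex, measured -0.51 ± 0.32 and 0.48 ± 0.30 (log2 fold change ± SE; adjusted p = 0.332 and 0.337, edgeR). With GC and length corrected the estimate of Thoc1 was 0.18, and it was -0.81 without MIZ1KO replicate 1 and -0.23 without MIZ1KO replicate 3. Of 10 genes of nonsense-mediated decay, which removes poison-exon transcripts, 0 passed and 1 was under an unadjusted p of 0.05, where 24.6% of all tested genes were, with a median log2 fold change of 0.14. DESeq2 and limma-voom also called 0 in either list. That gene, Upf1, the helicase at the centre of the pathway, measured a log2 fold change of 0.63 ± 0.27 (SE; adjusted p = 0.159, edgeR), and Upf3b measured -0.59 ± 0.35 (SE; adjusted p = 0.310, edgeR). With GC and length corrected the estimates were 0.20 for Upf1 and -0.13 for Upf3b, and Upf3b was at -0.32 without Control replicate 3.

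The long non-coding RNAs Malat1 and Xist, which stay in the nucleus, fell in MIZ1KO. Malat1, the long non-coding RNA of nuclear speckles, where SR proteins are stored, measured 1247, 1579 and 2434 CPM in MIZ1KO and 3727, 5634, 6829 and 6059 CPM in Control. Its libraries did not overlap and it fell by 1.67 on the log2 scale (adjusted p = 0.0150, edgeR). Xist, which coats the inactive X chromosome, fell by 1.59 (adjusted p = 0.0218, edgeR). After correction for GC and length its log2 fold change was -0.98. The Malat1 call ended without MIZ1KO replicate 1 (adjusted p = 0.131, edgeR) or Control replicate 4 (0.0555). The Xist call ended without any 1 of 5 libraries, MIZ1KO replicates 1, 2 and 3 and Control replicates 2 and 4, and with the replicate block, where the adjusted p in edgeR reached 0.162. A model of the class TEC, Gm37376, lies opposite Malat1, so reads of the pair may be shared. Xist is overlapped by Tsix, Gm26992 and Gm27927, with 294, 1243 and 55.3 counts over all libraries, so some of its reads may be shared too. Of the 3 nuclear RNAs listed, 2 fell, where 4.05% of all tested genes did. In all 3 the MIZ1KO libraries lay below the Control libraries without overlap, as in 10.8% of all tested genes. Neat1, the third of them, did not pass (adjusted p = 0.0544, edgeR). The part of nuclear RNA content in the values of Clk1, Clk4, Tra2a and the SRSF genes was not tested.

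**Figure D4:**
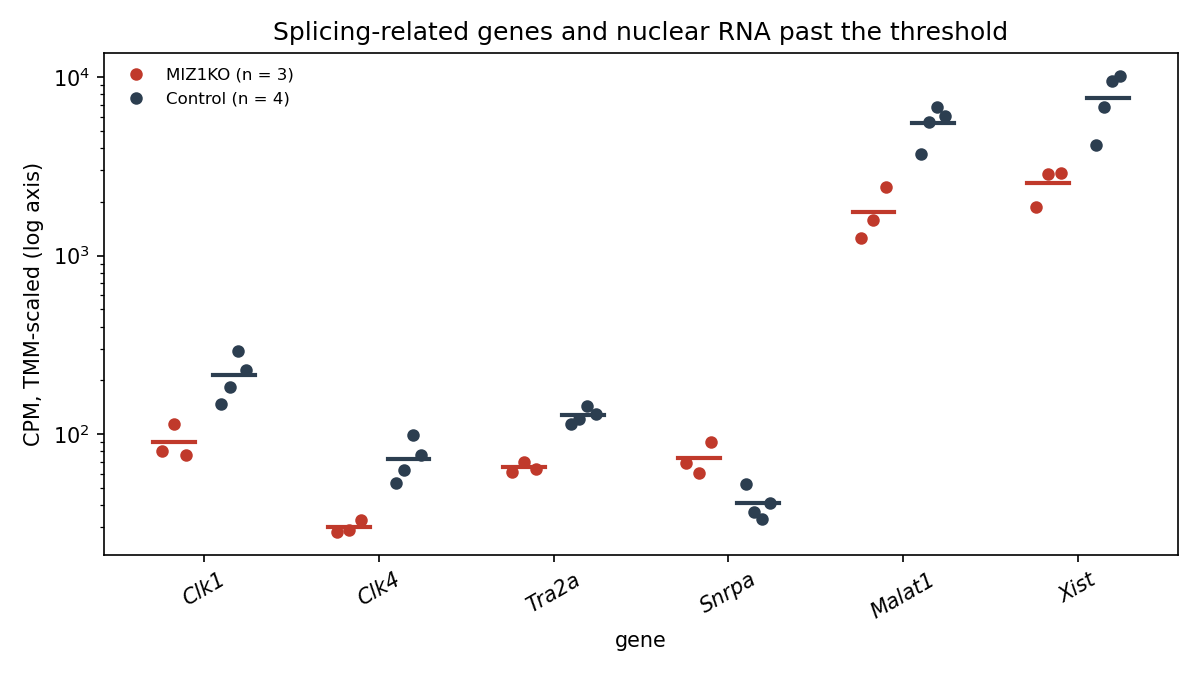
CPM on a log axis of the 4 splicing-related genes that passed the test, Clk1, Clk4, Tra2a and Snrpa, and of the nuclear RNAs Malat1 and Xist, with a point per library and a bar at the mean, MIZ1KO (n = 3) left of Control (n = 4). In each gene the points of the groups are apart; Snrpa is higher in MIZ1KO and the other 5 are lower.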

How the data were processed

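The data are 7 libraries of light zone germinal centre B cells, 3 labelled MIZ1KO and 4 labelled Control, grouped by the genotype label. The authors deposited expected counts (estimated counts per gene, 6.61% of them not whole) and a table of log2 values whose function was not given in the sources used here. STAR 2.5.2, RSEM 1.3.0, DESeq2 1.18.1, R 3.4.3 and GRCm38 are named per the submitters' processing notes, with no role or order; the annotation release and strand setting were not given in the sources used here.

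Counts were rounded, filtered with filterByExpr, scaled by trimmed means of M-values and tested with the quasi-likelihood fit of edgeR 4.0.16 (robust, two-sided, Benjamini-Hochberg over 11618 genes, threshold 0.05) in R 4.3.3. The edgeR 4 form of the fit was set explicitly. SE was the log2 fold change over the root of F, and 95% intervals from the degrees of freedom of the fit. Log2 CPM used a prior count of 2. Symbols, classes and exon lengths came from GENCODE vM21, which gave a symbol to 48435 of 48795 identifiers. DESeq2 1.42.0 and limma 3.58.1 served as alternatives, with other filters, scalings, gene sets and each library left out in turn. The GC and length correction was a spline fit with 5 degrees of freedom per term in each library. Fits were tested on simulated data.

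The SRSF genes, the lists and the promoter windows were chosen with earlier results of these data known. Named genes were all SRSF genes and, from each other list, the 2 with the smallest p and any past the threshold. A930004J17Rik, Gm43362 and Gm12992 were added for their overlap. Markers were given as sums or, for Cd79a and Bcl6, chosen after their values were seen, by library. Some markers are not reported here. Libraries of a group were checked for duplicates by a chi-square test of their counts, and all pairs differed beyond sampling noise (smallest ratio of chi-square to its degrees of freedom 15.9).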

Additional observations from a re-analysis of the deposited data

Results flagged for a closer look

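In the 4 Control libraries Srsf5 measured 225 CPM in replicate 1 and 282, 279 and 288 CPM in the others, so that the gap of replicate 1 to the nearest library was 0.862 of the whole range, above Dixon's critical value. Zbtb17 measured 7.02 CPM in Control replicate 4 and at most 3.42 CPM in the other Control libraries, a gap of 0.929 of the range. These were 2 of 21 gene results checked, and chance flags about 1 in 20 groups.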

How the results depend on the processing

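Over 17 alternatives no SRSF gene was called, and of 170 gene values 146 kept their direction and side of the threshold and 24 changed sign. The log2 fold change of Srsf2 was 0.019 with DESeq2, 0.037 with no filter on low counts, 0.0099 on the deposited log2 values and 0.040 without ribosomal RNA genes. That of Srsf7 was 0.021 with library totals, 0.024 with no filter, 0.0083 on the deposited log2 values and 0.026 without ribosomal RNA genes. After correction for GC and length the values were 0.13 for Srsf1, 0.074 for Srsf2, 0.053 for Srsf5, 0.060 for Srsf6, 0.43 for Srsf7, 0.21 for Srsf10, 0.18 for Thoc1 and -0.46 for Zbtb17, and among protein-coding genes Zbtb17 was at -0.00083. The cause was not tested. With each library left out in turn Srsf2 ran from -0.12 to 0.10, Srsf6 from -0.13 to 0.042, Srsf7 from -0.32 to 0.28 and Zbtb17 from -0.093 to 0.51. The 692 genes called became 1120 with DESeq2, 342 with limma-voom, 315 among protein-coding genes and 385 after correction for GC and length. Leaving out 1 library gave 39 to 1350 calls, namely 39 and 317 when MIZ1KO replicates 1 and 3 were left out, and 1350, 205, 428 and 142 for the Control replicates 1, 2, 3 and 4. Without MIZ1KO replicate 2 there were 495, 299 upward and 196 downward. With the replicate number as a block 476 genes were called. Deviations from the group means correlated at 0.02, 0.07 and 0.16 between same-numbered libraries. MIZ1KO replicates 1 and 3 were closest to the Control library of the same number, and MIZ1KO replicate 2 to Control replicate 1. Correlations this weak cannot tell whether same-numbered libraries belong together. Precision is limited by 104 counts for the lowest SRSF value and by 3 and 4 libraries.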
